A study of Mus musculus with 6 samples.

Results

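The subject is 10 genes for amino acid transporters of the plasma membrane: Slc7a11, Slc7a1, Slc7a3, Slc7a5, Slc7a6, Slc3a2, Slc1a4, Slc1a5, Slc38a2 and Slc6a9. They were chosen by gene symbol among the 35727 genes of the deposited count table, and all 10 were found and passed the filter on low counts that left 12819 genes for testing. The 6 libraries are poly(A) RNA of mouse undifferentiated pleomorphic sarcoma cells, a soft tissue tumour of mesenchymal origin, sorted by red fluorescence from tumours grown in mice. Every library comes from 1 syngeneic line, named p53 KO Ccne1 OE in the labels, made from mesenchymal stem cells of female C57/Bl6 p53KO mice with a retroviral vector for Ccne1 and RFP and passaged through female wild-type recipients. Both groups therefore share the loss of p53, the overexpressed cyclin and a viral hairpin vector. The 3 shSCR libraries carry a scrambled hairpin and the 3 shPostn libraries a hairpin against Postn, the gene of the matrix protein periostin. Sample titles name these groups Postn-WT and Postn-KO, although the protocol describes a hairpin in both. The age of the animals, the time after transplantation and the number of tumours behind the libraries of a group are not stated in the labels, so p-values measure the spread between these samples, which may be technical. With 1 hairpin against Postn and 1 line for each group, an effect of periostin and a difference between the lines cannot be told apart.

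Cells take up amino acids through carriers with distinct substrates, and many work as exchangers that pay for one amino acid with another. Slc7a11 (also called xCT) is a light chain that, bound to the heavy chain Slc3a2 (4F2hc), brings in cystine in exchange for glutamate; the cystine supplies cysteine for glutathione, which protects cells from lipid peroxidation and ferroptosis. Transcription of many of these carriers is raised by ATF4, the effector of the integrated stress response that is translated when amino acids are scarce, and that of Slc7a11 also by NRF2, the oxidative stress factor. ATF4 binds a composite element, often written TGATGNAA, in front of its targets, and p53 is known as a repressor of Slc7a11.

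Promoter sequences are shown for the 2 genes with a match to this element and for the partner of Slc7a11. RefSeq start sites on GRCm38.p6 gave 11 promoter windows for 7 of the 10 genes, each of 300 bases from 250 before to 50 after the start. Slc7a11 had 2 matches to TGATGNAA, searched on both strands, at −66 to −59 on the strand of the gene and at −47 to −40 on the opposite strand. Slc1a4 had 1 match, on the opposite strand, at −4 to 4 across the start. Slc3a2, the partner of Slc7a11, had none in the window at its RefSeq start. Capitals in the stretches below, from 250 bases before to 20 after the start and read 5′ to 3′ on the minus strand, mark the matches, and TTGCATCA is the reverse complement of TGATGCAA.
Slc7a11, chr3:50443594-50443863: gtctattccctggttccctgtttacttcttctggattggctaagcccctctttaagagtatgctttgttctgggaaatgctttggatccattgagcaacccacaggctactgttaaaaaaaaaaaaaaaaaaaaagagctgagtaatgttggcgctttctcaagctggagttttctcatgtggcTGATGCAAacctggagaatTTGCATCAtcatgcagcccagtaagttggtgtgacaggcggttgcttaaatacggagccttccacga
Slc1a4, chr11:20332694-20332963: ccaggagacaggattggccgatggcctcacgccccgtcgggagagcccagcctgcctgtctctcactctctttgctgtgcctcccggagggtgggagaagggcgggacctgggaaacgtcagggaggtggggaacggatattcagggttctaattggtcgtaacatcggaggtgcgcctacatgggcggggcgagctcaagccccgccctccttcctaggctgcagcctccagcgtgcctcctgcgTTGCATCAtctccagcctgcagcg
Slc3a2, chr19:8713878-8714147: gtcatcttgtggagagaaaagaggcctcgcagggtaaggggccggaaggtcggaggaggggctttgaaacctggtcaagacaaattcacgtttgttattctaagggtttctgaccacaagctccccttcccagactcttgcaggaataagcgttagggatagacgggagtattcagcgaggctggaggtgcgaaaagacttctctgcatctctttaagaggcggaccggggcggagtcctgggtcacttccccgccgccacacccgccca

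Of all 32851 RefSeq promoter windows of this length 3.97% held at least 1 match to TGATGNAA, and 23 windows (0.0700%) held 2 or more. In a list of 32 ATF4 target genes, 9 of the 30 genes with a window held a match (30.0%), against 4.51% of all 27025 genes. Known targets may owe their place on such a list partly to this element, so the contrast is not independent evidence. Among the 23 other plasma membrane amino acid transporters with a window, Slc7a7, which did not pass the expression test described further on, was the 1 gene with a match, and it too held at least 2. TGANNNNGC, a loose form of the antioxidant element that NRF2 binds, matched 3 times in the Slc7a11 window. Of these matches 1, at −45 to −37, overlaps the second TGATGCAA. That shorter consensus is common, at 41.3% of windows with at least 1 match and 10.1% with 2 or more. A match describes letters in a window and is not a measured binding site.

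Between 19603269 and 20376554 counts were deposited for each library, and 15901 to 16666 genes were detected. Postn, the gene targeted by the hairpin, measured 4097, 3602 and 3225 CPM (counts scaled by the normalised library size) in shSCR and 217, 471 and 639 CPM in shPostn, with no overlap. Its log2 fold change was −3.04 (SE 0.41; edgeR adjusted p = 0.0125), and the adjusted p was 0.0532 without shSCR replicate 1 and 0.0542 without shSCR replicate 2. Trp53, the gene of the p53 deletion that both groups share, had counts in every library (105 to 128 CPM), and since the labels do not give the deleted part this level does not check the genotype. Of 10 mesenchymal markers of the labelled cell type, Col1a2 was the most abundant, between 10856 and 17533 CPM, and Thy1 the lowest, between 0.257 and 3.89 CPM. Nt5e was the 1 marker called: it rose from between 22.3 and 25.6 CPM in shSCR to between 56.2 and 72.3 CPM in shPostn (log2 fold change 1.41, SE 0.11, edgeR adjusted p = 0.00242). Epithelial markers summed to between 0.404 and 2.60 CPM, with Krt5 and Krt18 at 0 in every library. The 16 leukocyte markers each had counts in at least 1 library; they summed to between 76.3 and 215 CPM in shSCR, to 121 and 53.9 CPM in shPostn replicates 1 and 2 and to 990 CPM in shPostn replicate 3. shPostn replicate 3 stood apart on the second principal component (56.5, against −22.5 to 1.52 for the others), and results are therefore also given without it.

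The comparison of shPostn with shSCR asks which transporter genes sarcoma cells express differently inside tumours when periostin is reduced. Of the 10 transporter genes, 6 fell in shPostn (Slc7a11, Slc6a9, Slc7a5, Slc7a1, Slc1a4 and Slc3a2), 0 rose and 4 did not pass the test (edgeR adjusted p under 0.05). Among all genes tested 5.53% fell and 4.61% rose (10.1% in either direction). The 6 that fell were lower by between 26.5% (Slc3a2) and 67.5% (Slc7a11) of their control mean. The median log2 fold change of the 10 genes was −0.64, against 0.01 over all genes tested. The 10 genes were chosen with earlier results of these data known, so this contrast is not independent evidence of a direction. Library values of the groups did not overlap for 7 genes that were lower and 1 that was higher, while 17.0% of all genes tested did not overlap and were lower and 16.6% did not overlap and were higher. Summed over the 10 genes, the level was 1612, 1649 and 1678 CPM in shSCR and 1442, 1231 and 1131 CPM in shPostn. In these bulk libraries fewer cells of a type and less RNA per cell cannot be told apart.

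**Figure D1:**
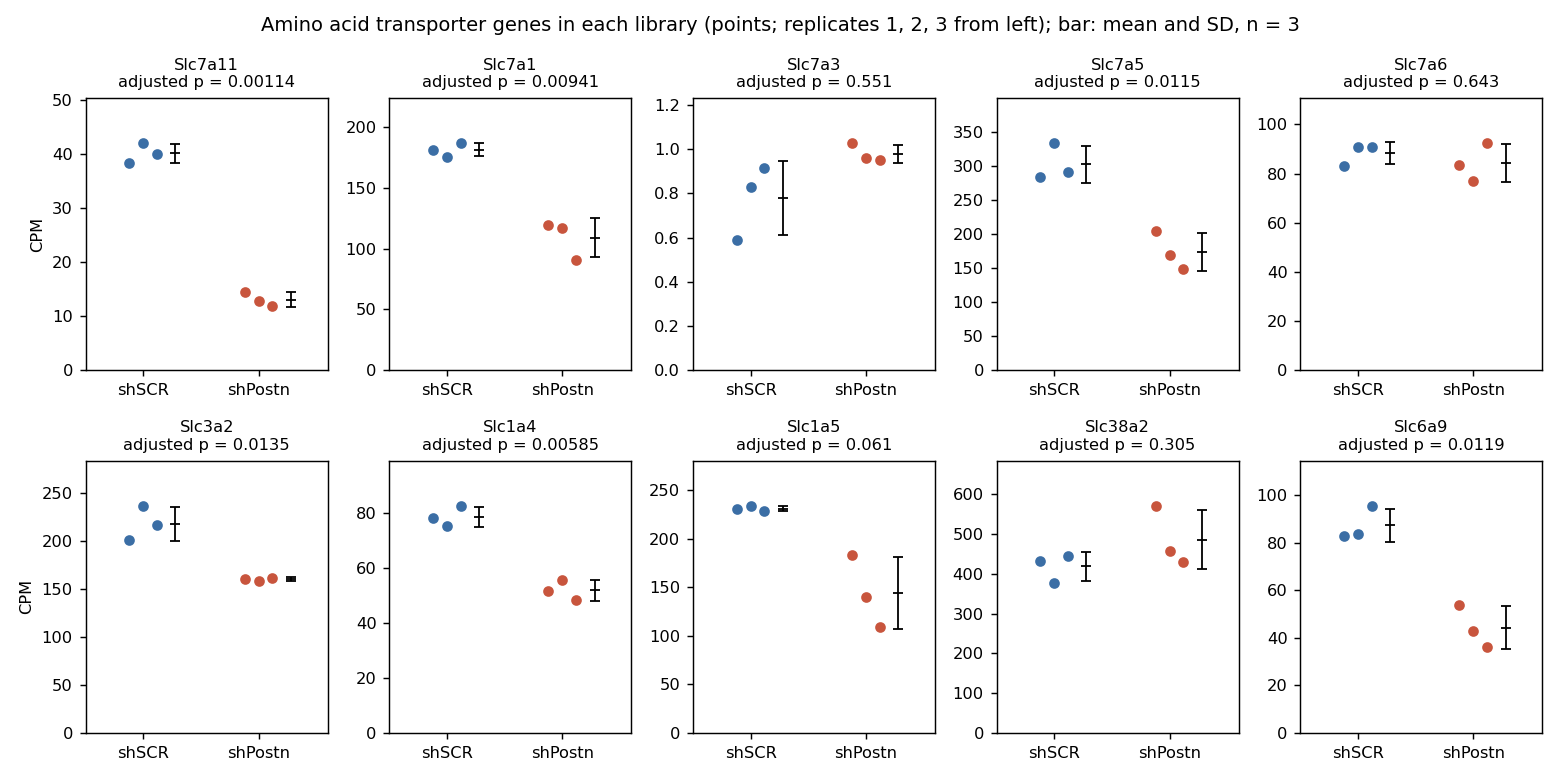
Level of each of the 10 transporter genes (vertical axis, CPM, from 0) in the 3 shSCR libraries (blue) and the 3 shPostn libraries (red), with the group mean and SD beside the points and the edgeR adjusted p above. Slc7a11 lies between 38.4 and 42.0 CPM in shSCR and between 11.8 and 14.5 CPM in shPostn, while the groups overlap for Slc7a6 and Slc38a2.

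The cystine importer changed most among the 10. Slc7a11 (ENSMUSG00000027737; chromosome 3, 49892526 to 50443614, minus strand; positions here and below are GRCm38 gene bounds from GENCODE M21) measured 38.4, 42.0 and 40.1 CPM in shSCR and 14.5, 12.8 and 11.8 CPM in shPostn. All shPostn libraries lay far below all shSCR libraries, and the spread within each group was small. The deposited counts were 780, 859 and 789 in shSCR against 283, 253 and 236 in shPostn, a ratio of 3.08 with a 95% exact Clopper-Pearson interval of 2.84 to 3.35 that covers counting error only. The log2 fold change was −1.62 (standard error, SE, 0.10; edgeR adjusted p = 0.00114), and with any 1 library left out it stayed between −1.71 and −1.55 with adjusted p-values between 0.000171 and 0.0147. The leukocyte-rich shPostn replicate 3 was the lowest of its group, and without it the log2 fold change was −1.55. The 24 expressed neighbours of Slc7a11 within 5 Mb on each side centred on a log2 fold change of −0.06 (median), with 2 that passed the test.

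Slc3a2 (ENSMUSG00000010095; chromosome 19, 8706882 to 8723369) encodes the heavy chain that carries Slc7a11 and other light chains to the membrane. It measured 200, 236 and 217 CPM in shSCR and 161, 158 and 161 CPM in shPostn, so that the shPostn libraries were nearly equal and all lower. Means of 218 ± 18.0 CPM in shSCR and 160 ± 1.99 CPM in shPostn (SD, n = 3 each) gave a difference of −0.44 on the log2 scale (SE 0.07; edgeR adjusted p = 0.0135). The call was lost without shSCR replicate 2 (adjusted p = 0.0565), shSCR replicate 3 (0.0617) or shPostn replicate 2 (0.0518). The gap between Slc7a11 and its partner also separated the groups: the log2 ratio of Slc7a11 to Slc3a2 CPM was −2.38, −2.49 and −2.44 in shSCR and −3.47, −3.62 and −3.78 in shPostn. The difference of the means was −1.19, with an exact 2-sided permutation p of 0.1, the smallest that 3 against 3 libraries allow.

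Light chains that pair with Slc3a2 were compared as CPM per kilobase of the principal transcript. Slc7a5 (LAT1), an exchanger that imports leucine and other large neutral amino acids, made up 73.1%, 75.1% and 72.3% of the summed light chain level in shSCR and 68.8%, 65.8% and 55.4% in shPostn. The share of Slc7a11 was 3.78%, 3.61% and 3.80% in shSCR and 1.87%, 1.90% and 1.67% in shPostn. That of Slc7a6 (y+LAT2), which exchanges arginine for neutral amino acids, was 20.2%, 19.2% and 21.2% in shSCR and 26.4%, 28.2% and 32.2% in shPostn. Each of these shares separated the groups without overlap, with an exact permutation p of 0.1 each. They are parts of the same sum, so these are not separate results. A larger share need not mean a higher level: Slc7a6 itself averaged 23.5 CPM per kilobase in shSCR and 22.5 in shPostn. In shPostn replicate 3, where leukocyte markers were high, Slc7a7 and Slc7a8 made up 6.62% and 4.12%, against 1.85% to 4.05% and 0.0849% to 0.492% in the other 5 libraries. The part of that library's leukocyte RNA in these shares was not tested. With union exon lengths instead, the share of Slc7a11 was 2.63% to 2.78% in shSCR and 1.26% to 1.41% in shPostn.

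**Figure D2:**
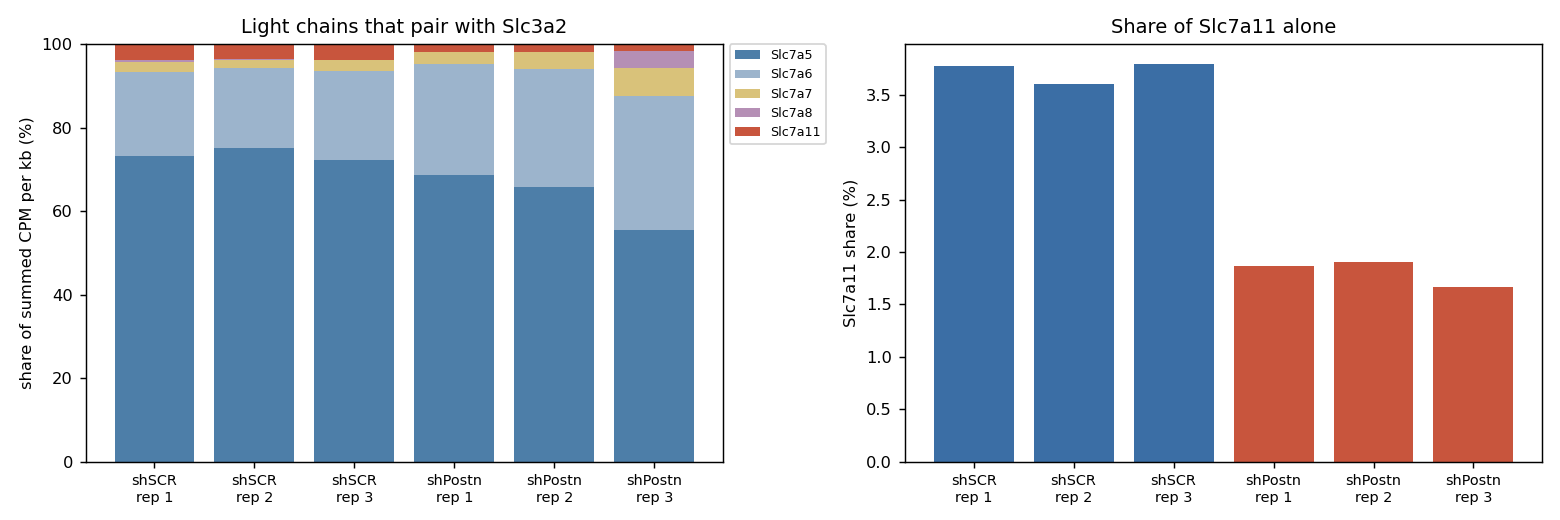
Left, shares (percent) of the light chain genes in their summed CPM per kilobase in each library; right, the share of Slc7a11 alone in shSCR (blue) and shPostn (red). The share of Slc7a11 lies between 3.61% and 3.80% in shSCR and between 1.67% and 1.90% in shPostn.

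Slc7a5 itself fell (ENSMUSG00000040010; chromosome 8, 121881150 to 121907694). It measured 283, 333 and 291 CPM in shSCR and 204, 169 and 149 CPM in shPostn, with no overlap. The log2 fold change was −0.80 (SE 0.12; edgeR adjusted p = 0.0115), and the adjusted p was 0.0611 without shSCR replicate 2. Slc7a6 lies on the same chromosome (ENSMUSG00000031904; 106168857 to 106198706) and did not pass the test. Its levels overlapped, at 83.2, 90.7 and 90.9 CPM in shSCR and 83.4, 77.1 and 92.3 CPM in shPostn (log2 fold change −0.07, SE 0.08, edgeR adjusted p = 0.643).

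The cationic amino acid transporters import arginine, lysine and ornithine without a heavy chain. Slc7a1 (CAT1; ENSMUSG00000041313; chromosome 5, 148327410 to 148399904) fell, from 181, 176 and 187 CPM in shSCR to 119, 117 and 90.9 CPM in shPostn. The highest shPostn library was well below the lowest shSCR library, with a log2 fold change of −0.73 (SE 0.11; edgeR adjusted p = 0.00941). Without shSCR replicate 2 the adjusted p was 0.0506. Slc7a3 (CAT3; ENSMUSG00000031297; chromosome X, 101079210 to 101086020) was close to the detection limit, with 12, 17 and 18 counts in shSCR and 20, 19 and 19 counts in shPostn. Its CPM values did not overlap, but its log2 fold change of 0.33 was close in size to its standard error of 0.31, and it did not pass the test (edgeR adjusted p = 0.551).

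Neutral amino acid exchangers of the Slc1 family were both lower on average. Slc1a4 (ASCT1; ENSMUSG00000020142; chromosome 11, 20302180 to 20332713), a carrier of alanine, serine and cysteine, measured 78.0, 75.1 and 82.5 CPM in shSCR and 51.7, 55.5 and 48.2 CPM in shPostn. It fell with a log2 fold change of −0.60 (SE 0.07; edgeR adjusted p = 0.00585) and, besides Slc7a11, was the 1 gene of the 10 whose call held with any 1 library left out. Slc1a5 (ASCT2; ENSMUSG00000001918; chromosome 7, 16781340 to 16798274), the main glutamine carrier of many tumour cells, measured 231, 234 and 229 CPM in shSCR and 183, 140 and 109 CPM in shPostn. The groups did not overlap, but the shPostn libraries spread widely, and the log2 fold change of −0.68 (SE 0.18) had an edgeR adjusted p of 0.0610. The gene passed with DESeq2 (adjusted p = 0.000837), with leukocyte markers as a covariate (0.0306), without shPostn replicate 1 (0.0127) and without shPostn replicate 3 (0.0178). It did not pass in the other settings. There the edgeR adjusted p reached 0.0996 with chromosome medians taken out and 0.190 without shSCR replicate 2.

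The sodium-driven carriers differed from each other. Slc6a9 (GlyT1; ENSMUSG00000028542; chromosome 4, 117834506 to 117875198) imports glycine, which with cysteine and glutamate builds glutathione. It measured 82.8, 83.6 and 95.5 CPM in shSCR and 54.0, 42.8 and 36.2 CPM in shPostn, all shPostn libraries being lower. The log2 fold change was −0.98 (SE 0.15; edgeR adjusted p = 0.0119), the second largest of the 10. Genes around Slc6a9 were lower as well: 64 expressed neighbours within 5 Mb on each side centred on a log2 fold change of −0.17 (median), and all 11 that passed the test were lower. With each chromosome's median taken out, which for chromosome 4 was −0.14, the log2 fold change of Slc6a9 was −0.84 (edgeR adjusted p = 0.0300). Its call was lost without shSCR replicate 2 (adjusted p = 0.0581), shSCR replicate 3 (0.0534) or shPostn replicate 2 (0.0518). Slc6a9 overlaps B4galt2 on the opposite strand (109 ± 4.38 CPM in shSCR, 100 ± 5.82 CPM in shPostn; SD, n = 3 each), and whether the counting used the strand is not given in the sources used here.

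Slc38a2 (SNAT2; ENSMUSG00000022462; chromosome 15, 96687392 to 96699730), a sodium-coupled importer of alanine, glutamine and other small neutral amino acids that is known to be induced by amino acid shortage, was not lower. It measured 433, 378 and 445 CPM in shSCR and 571, 458 and 431 CPM in shPostn, with overlapping groups (log2 fold change 0.22, SE 0.12, edgeR adjusted p = 0.305). Its fitted change stayed positive, between 0.09 and 0.30, with any 1 library left out.

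Per kilobase of principal transcript, the 10 genes formed bands of level. In shSCR, Slc3a2 was at 120 ± 9.89, Slc38a2 at 89.9 ± 7.67, Slc7a5 at 86.0 ± 7.64 and Slc1a5 at 83.7 ± 0.887 CPM per kilobase (SD, n = 3), and the library ranges of the last 3 overlapped from each to the next. Slc7a1 (25.3 ± 0.759), Slc6a9 (25.1 ± 2.04) and Slc7a6 (23.5 ± 1.18 CPM per kilobase) overlapped likewise, with Slc1a4 below them at 20.0 ± 0.954. Slc7a11 had 4.35 ± 0.195 and Slc7a3 0.283 ± 0.0611 CPM per kilobase. In shPostn the highest was Slc38a2 (104 ± 15.9), followed by Slc3a2 (88.0 ± 1.09), while Slc7a11 (1.41 ± 0.150 CPM per kilobase) and Slc7a3 stayed lowest. With union exon lengths the same 4 genes were at the top and the same 2 at the bottom in both groups, but the order among the top 4 changed.

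Within shPostn, replicate 3 was the lowest library for 8 of the 10 genes in CPM and for 5 of the 6 that fell. The share of all genes tested that were lowest in this library was not counted, so these numbers have no background to be judged by. The 8 include Slc7a3, with 19 counts in both shPostn replicates 2 and 3. Without shPostn replicate 3 the same 6 genes and Slc1a5 fell, where 9.20% of all genes tested fell. The count was 2 (Slc7a11 and Slc1a4) without shSCR replicate 2, where 1.46% of all genes tested fell, and 4 without shSCR replicate 3 (1.87%) or shPostn replicate 2 (2.88%). DESeq2 called 7 of the 10 lower (7.87% of all genes).

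**Figure D3:**
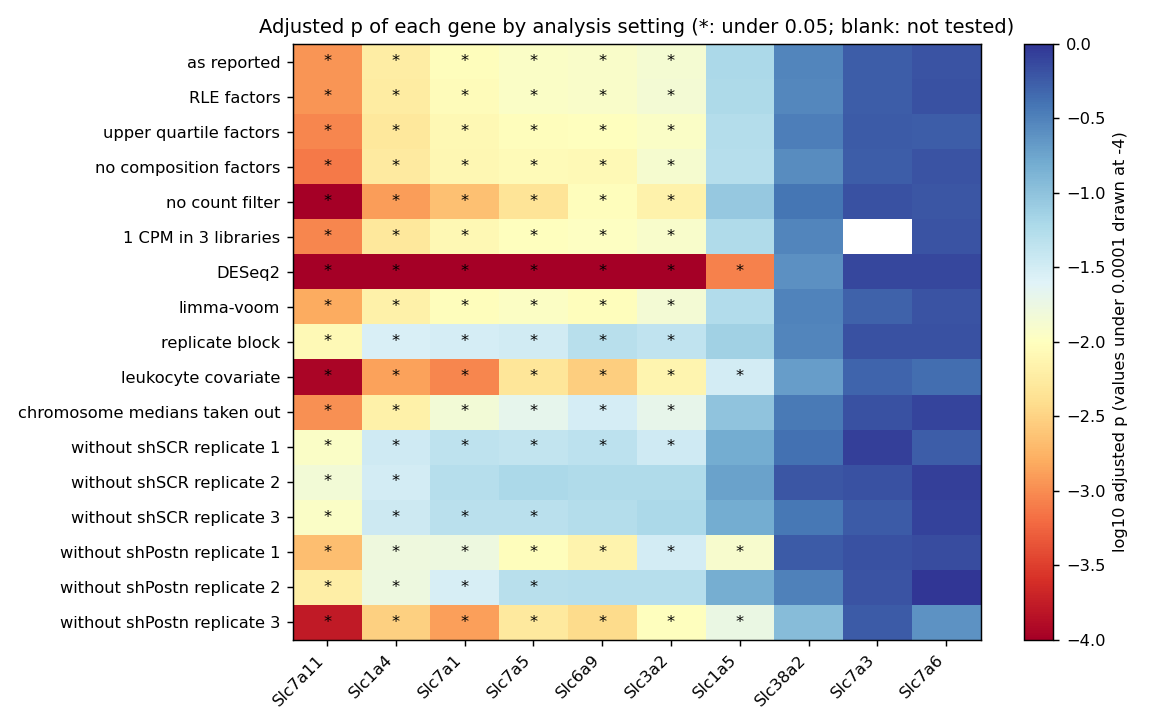
Adjusted p (colour, log10 scale; asterisks mark values under 0.05) of the 10 genes (columns) as reported and under each alternative setting or left-out library (rows). Slc7a11 and Slc1a4 carry an asterisk in every row; without shSCR replicate 2 they are the 2 genes that do.

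A list of 32 other amino acid transporters, grouped as plasma membrane carriers without a measurement of their location, was examined in the same fit. Of these 32 such genes 13 passed the count filter. Several of the 13 were scarce, such as Slc6a20b and Slc7a8, with shSCR means of 0.564 and 1.43 CPM. The SE of their log2 fold changes was 0.46 and 1.49, so a missing call there does not show a lack of change. Of the 13, 1 rose (7.69%, against 4.61% of all genes tested), 0 fell and 12 did not pass the test. The median log2 fold change of the 13 was 0.38. That median changed with the setting, and why was not tested. Without shPostn replicate 3, the library with the most leukocyte RNA, it was 0.0047. In that fit 1 gene rose and 3 fell, Slc38a1 and Slc36a4 among them. With the replicate block the median was 0.021. The median was 0.030 with limma-voom (1 rose, 1 fell) and 0.028 with the leukocyte covariate (1 rose, 2 fell), and DESeq2 called 1 higher and 2 lower. The gene that rose was the taurine transporter Slc6a6, with 158, 180 and 170 CPM in shSCR and 258, 235 and 320 CPM in shPostn, all shPostn libraries being higher. Its log2 fold change was 0.68 (SE 0.12; edgeR adjusted p = 0.0170), and its adjusted p was 0.0695, 0.0682 and 0.0724 without shSCR replicates 1, 2 and 3. The glutamine importer Slc38a1 (SNAT1), a paralog of Slc38a2, measured 64.6, 75.0 and 57.9 CPM in shSCR and 35.4, 40.0 and 51.7 CPM in shPostn. These groups did not overlap, but the gene did not pass (log2 fold change −0.64, SE 0.16, edgeR adjusted p = 0.0551). It passed with DESeq2 (0.00278) and without shPostn replicate 3 (0.0051). In other settings its adjusted p reached 0.123 with all libraries kept and 0.175 with 1 library left out. Slc36a4, a carrier of proline and tryptophan, lay at the threshold (log2 fold change −0.23, SE 0.06, edgeR adjusted p = 0.0500146). Of the 19 transporters that did not pass the filter, 6 had 0 counts in every library.

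**Figure D4:**
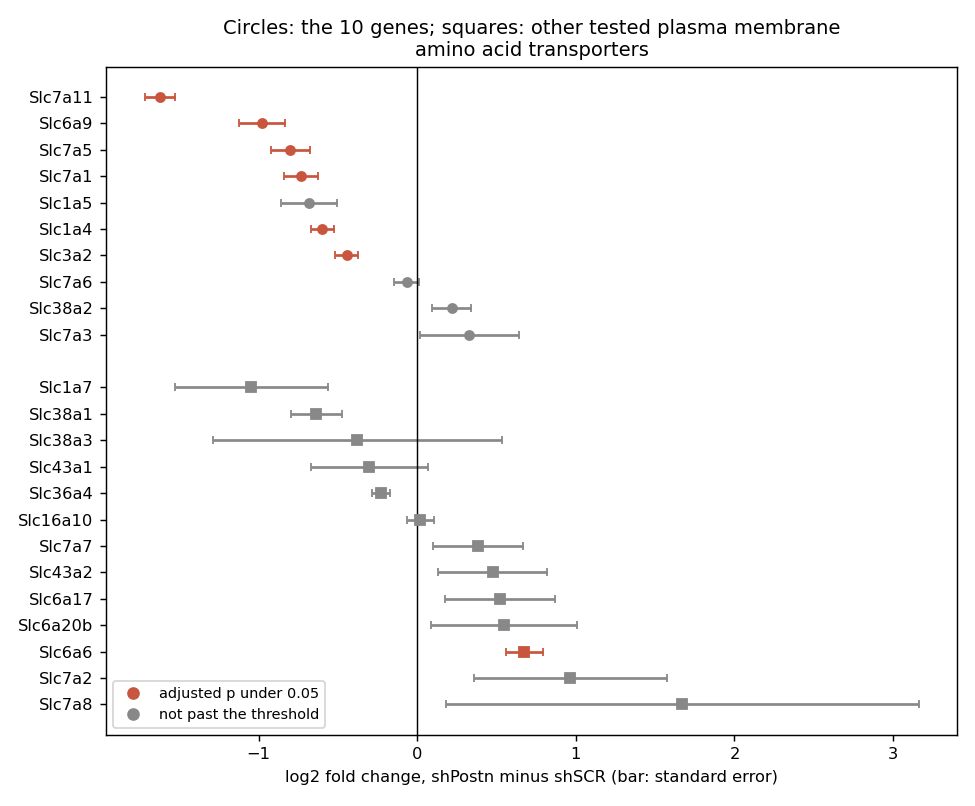
Log2 fold change, shPostn minus shSCR, with its standard error for the 10 genes (circles) and 13 other tested plasma membrane transporters (squares); red marks an edgeR adjusted p under 0.05. Slc7a11 is at −1.62, 6 circles are red and all lie left of 0, and Slc6a6 at 0.68 is the only red square.

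Amino acid carriers inside the cell, on lysosomes and mitochondria, were all measured (18 of 18), with a median log2 fold change of 0.08. Of these carriers 0 rose and 2 fell (11.1%, against 5.53% of all genes tested). These were Sfxn3, a mitochondrial serine carrier of the sideroflexin family (102 ± 4.06 CPM in shSCR, 83.7 ± 5.59 in shPostn; log2 fold change −0.28, SE 0.07), and the lysosomal glutamine exporter Slc38a7 (49.9 ± 2.31 and 41.3 ± 1.61 CPM; −0.27, SE 0.06; SD, n = 3 each). Neither call held with any 1 library left out, including shPostn replicate 3 (edgeR adjusted p = 0.0535 and 0.0501). In that last setting 2 carriers other than these fell, where 9.20% of all genes tested fell.

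Many targets of ATF4 other than transporters fell, at a share close to the 60% of the 10 transporters. Of 30 tested genes of 32 listed, 19 fell, 0 rose and 11 did not pass, with a median log2 fold change of −0.52. The 19 make up 63.3% of the tested genes, against 5.53% of all genes tested that fell. The hormone gene Fgf21, secreted under amino acid stress, had 90 counts over the shSCR libraries and 12 over the shPostn libraries, a ratio of 7.35 (95% exact Clopper-Pearson interval 4.01 to 14.8; log2 fold change −2.84, SE 0.46). Its call was lost without shSCR replicate 2 (adjusted p = 0.0639), shSCR replicate 3 (0.0540) or shPostn replicate 2 (0.0525). The lipoprotein receptor Vldlr went from 65.3 ± 9.83 to 20.5 ± 6.66 CPM (SD, n = 3 each; log2 fold change −1.67, SE 0.26), and was not called without any 1 of the 3 shSCR replicates (adjusted p 0.0508 to 0.0672) or without shPostn replicate 2 (0.0545). Atf4 itself measured 504, 497 and 524 CPM in shSCR and 476, 416 and 375 CPM in shPostn, lower in each library. It did not pass (log2 fold change −0.27, SE 0.09, edgeR adjusted p = 0.120), but passed with DESeq2 (0.0393) and without shPostn replicate 1 (0.0389). In other settings its adjusted p reached 0.173 with all libraries kept and 0.297 with 1 library left out. The number of ATF4 targets that fell was 7 without shSCR replicate 2, 8 without shSCR replicate 3 and 9 without shSCR replicate 1 (where 1.92% of all genes tested fell) or shPostn replicate 2. This list was drawn up with earlier results of these libraries known and is not independent evidence of its direction.

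Genes of cystine and glutathione metabolism and of ferroptosis moved in both directions. Of 18 tested genes of 22 listed, 2 fell and 2 rose, with a median log2 fold change of 0.09. In this list 22.2% were called in either direction, against 10.1% of all genes tested. Cth, which makes cysteine from cystathionine and so offers a source other than imported cystine, fell: it measured 63.2, 82.0 and 65.8 CPM in shSCR and 23.4, 27.3 and 15.7 CPM in shPostn (log2 fold change −1.67, SE 0.22, edgeR adjusted p = 0.00921). Chac1, which degrades glutathione, fell as well, with 36.3 ± 2.63 CPM in shSCR and 14.5 ± 3.77 in shPostn (difference −1.32 on the log2 scale, SE 0.18); both genes are also on the ATF4 list. The glutathione peroxidase gene Gpx1 rose to 145 ± 10.5 CPM from 93.0 ± 4.41 in shSCR (difference 0.64 on the log2 scale, SE 0.07, edgeR adjusted p = 0.00536). Acsl4, which loads polyunsaturated fatty acids into lipids that ferroptosis oxidises, rose to 77.2 ± 11.0 CPM from 52.9 ± 5.84 in shSCR (difference 0.55 on the log2 scale, SE 0.13, edgeR adjusted p = 0.0393; SD, n = 3 each). Its adjusted p was between 0.0534 and 0.157 without any 1 of the shSCR replicates or without shPostn replicate 1 or 3, and 0.0760 with chromosome medians taken out.

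Of 21 NRF2 target genes, all tested, edgeR called 0, with a median log2 fold change of 0.12. At an unadjusted p under 0.05 there were 7, of which 5 were higher and 2 lower (13.4% and 13.5% of all genes tested); DESeq2 called 2, both higher (7.55% of all genes were called higher), and limma-voom 0 (10.2% of all genes were called). Without shPostn replicate 3 there were 3, all higher (7.93% of all genes). The most abundant, the ferritin genes Ftl1 (1003 ± 34.5 CPM in shSCR, 1099 ± 177 in shPostn) and Fth1 (626 ± 22.6 and 692 ± 47.5 CPM; SD, n = 3 each), overlapped between the groups.

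Genes of amino acid sensing and of signalling through ATF4 and mTORC1, not all of them sensors, were all tested (36 of 36). Of these 2 fell and 0 rose, with a median log2 fold change of 0.00. The 2 make up 5.56% of the list, close to the 5.53% of all genes tested that fell. Sesn2, a leucine sensor and ATF4 target, fell to 46.7 ± 5.40 CPM from 95.7 ± 4.37 in shSCR (SD, n = 3 each; difference −1.04 on the log2 scale, SE 0.09, edgeR adjusted p = 0.00276). Seh1l, a subunit of GATOR2 and of the nuclear pore, fell to 75.4 ± 6.70 CPM from 125 ± 5.35 in shSCR (difference −0.73 on the log2 scale, SE 0.08), but lies on chromosome 18, whose median log2 fold change was −0.45. With chromosome medians taken out it had a log2 fold change of −0.28 (edgeR adjusted p = 0.0880). Without shPostn replicate 3 the counts were 4 that fell and 1 that rose, where 9.20% of all genes tested fell and 7.93% rose.

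Enzymes that use imported amino acids had 4 that fell of 21 tested (23 listed) and 0 that rose, with a median log2 fold change of −0.16. The 4 make up 19.0% of the tested genes, against 5.53% of all genes tested that fell. The alanine transaminase Gpt2, also an ATF4 target, fell to 87.9 ± 5.63 CPM from 149 ± 6.18 in shSCR (difference −0.76 on the log2 scale, SE 0.07), and the aspartate transaminase Got1 from 80.8 ± 3.87 to 52.9 ± 4.79 CPM (−0.61, SE 0.08; SD, n = 3 each). Without shSCR replicate 1 or without shSCR replicate 2 the count was 2, where 1.92% and 1.46% of all genes tested fell. Of 10 tested regulators of these transporters (11 listed), Nedd4l, a ubiquitin ligase of membrane proteins, fell (log2 fold change −0.38, SE 0.08), also a chromosome 18 gene, and 0 rose, with a list median of 0.05. That 1 call is 10% of the tested regulators, where 5.53% of all genes tested fell. With chromosome medians taken out Nedd4l had a log2 fold change of 0.071 (edgeR adjusted p = 0.654), and it did not pass without any 1 of the shSCR replicates or without shPostn replicate 1 or 2 (adjusted p 0.0667 to 0.109).

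**Figure D5:**
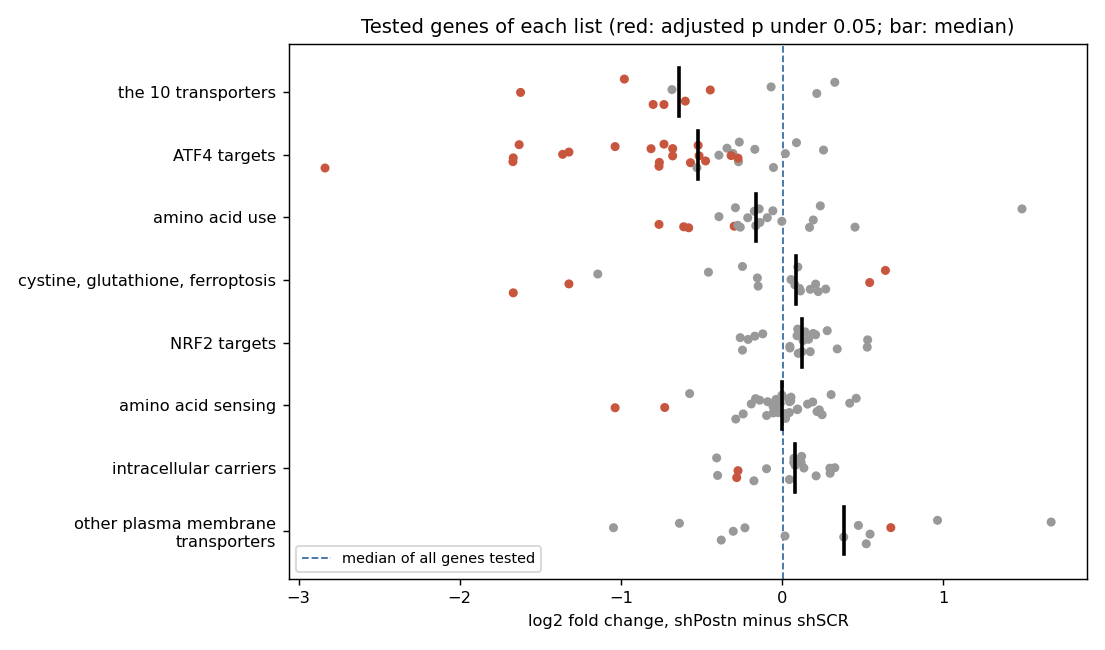
Log2 fold change, shPostn minus shSCR, of each tested gene (points; red for an edgeR adjusted p under 0.05) in the 10 transporters and 7 related lists, with list medians as bars and the median of all genes as a dashed line. The medians of the 10 transporters (−0.64) and the ATF4 targets (−0.52) lie to the left, that of NRF2 targets is 0.12 and that of the other plasma membrane transporters 0.38, which is 0.0047 without shPostn replicate 3.

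Genes most like Slc7a11 over the 6 libraries were ranked by the root mean square difference of log2 CPM profiles, each centred on its mean. The ranking covered 9958 other genes with a mean of at least 5 CPM, leaving out predicted, clone-type, accession-like and duplicate gene names. The closest were the autophagy gene Atg9b (0.14), the sialomucin gene Cd34 (0.15), Plcxd2 (0.16), the protocadherin gene Pcdhb12 (0.19) and Stc2 (0.19), which encodes a secreted glycoprotein and is on the ATF4 list. Atg9b measured 15.3, 13.0 and 12.4 CPM in shSCR and 4.72, 3.89 and 4.10 CPM in shPostn. Of the transporters, Slc6a9 was the closest, at rank 19 (0.33), followed by Slc7a5 at rank 54 and Slc7a1 at rank 86, while Slc7a6 (rank 3449) and Slc38a2 (rank 8012) were far from it. Slc7a3 lies under 5 CPM and was not ranked.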

How the data were processed

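Gene expression was measured by strand-specific poly(A) RNA sequencing in 3 shSCR and 3 shPostn libraries. The authors deposited estimated counts per Ensembl gene as whole numbers; Salmon and mm10 are named in the submitters' processing notes, with versions and annotation not given in the sources used here. Of 35727 gene IDs, 35493 matched GENCODE M21. Genes that passed filterByExpr (minimum count 10) were scaled by TMM factors and compared with a robust edgeR 4.0.16 quasi-likelihood F-test in R 4.3.3, all 6 libraries in 1 fit without covariates, adjusted by Benjamini-Hochberg over 12819 genes at 0.05. SE is the log2 fold change over the square root of F. On simulated data of this comparison (12819 genes, 200 changed) 174 genes were called, 5 of them falsely; recovery was 82% for 2-fold and 87% for 4-fold changes. Smaller changes, such as most of those described, were not simulated.

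The members and gene lists were chosen with earlier results of these data known. All 10 members are named, as are every called gene among the other plasma membrane transporters, the 2 called genes with the largest change each way in each other list (the 2 most abundant if none was called), Postn, and the 5 genes most like Slc7a11. Slc7a2, Slc7a7, Slc7a8, Slc38a1, Slc36a4, Slc43a2, Slc6a17, Slc6a20b, Atf4, Trp53, B4galt2 and the marker genes given by name were added after their values were seen. Per kilobase values use the longest APPRIS principal transcript. Alternatives comprised other scalings (upper quartile, relative log expression, none), other filters (none, or at least 1 CPM in 3 libraries), the tools DESeq2 1.42.0 and limma-voom (limma 3.58.1), a replicate block, a leukocyte covariate (mean of 13 markers), chromosome medians taken out, and each library left out in turn. Intervals on counts take in counting error alone, since no molecular identifiers are mentioned in the labels. The labels give no batch.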

Additional observations from a re-analysis of the deposited data

How the results depend on the processing

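The calls of Slc7a11, Slc7a1, Slc7a5, Slc3a2, Slc1a4 and Slc6a9 held, with the same sign, under each of the 10 alternatives that kept all libraries; left-out libraries gave between 2 and 7 called transporters. The number of genes called, 1300, became 1973 with DESeq2, 2191 with the leukocyte covariate, 655 with chromosome medians taken out, and 307 to 2220 with 1 library left out. Called counts of the lists moved as follows. Other plasma membrane transporters went from 1 (higher) to 2 with upper quartile factors, with 1 CPM in 3 libraries or with limma-voom (1 lower), to 3 with DESeq2 or the leukocyte covariate (2 lower), and to between 0 and 4 with 1 library left out (3 lower of the 4, without shPostn replicate 3); their median of 0.38 became 0.021 with the replicate block. Intracellular carriers went from 2 to 0 with chromosome medians taken out, and to between 0 and 2 with 1 library left out. NRF2 targets went from 0 to 2 with DESeq2, 4 with the leukocyte covariate, 1 with chromosome medians taken out, and 0 to 3 with 1 library left out. ATF4 targets went from 19 to between 7 and 23, amino acid use from 4 to between 2 and 4, and glutathione genes from 4 to between 3 and 5, with 1 library left out. Amino acid sensing went from 2 to 4 with DESeq2, 5 with the leukocyte covariate, 1 with chromosome medians taken out, and 2 to 5 with 1 library left out. Regulators went from 1 to 3 with DESeq2, 0 with chromosome medians taken out, and 0 to 1 with 1 library left out. Signs turned for Slc7a8 (log2 fold change 1.67) with the leukocyte covariate (−0.68) or with 1 library left out (−1.80, without shPostn replicate 3, to 2.23), and with chromosome medians taken out for Nedd4l (0.071) and B4galt2 (0.022). The cause of these changes was not tested. Deviations from group means had correlations of −0.07, −0.13 and −0.44 between same-numbered libraries. Having only 3 libraries a group, these values cannot decide whether the numbers pair the libraries. With the replicate block 735 genes, 6 of the 10 transporters, 12 ATF4 targets, 0 intracellular carriers and 0 regulators were called; the block left Slc7a11 at −1.63 and turned Slc7a8 to −0.33, and Postn had a log2 fold change of −3.16 and was no longer called (edgeR adjusted p = 0.0592). Depth limits Slc7a3, whose counts were 12 to 20 a library.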

Other observations

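Of the 13 tested plasma membrane transporters outside the 10, 7 were highest in shPostn replicate 3, the library with the most leukocyte RNA. They were Slc6a6, Slc7a2, Slc7a7, Slc7a8, Slc43a2, Slc6a17 and Slc6a20b. The share of all genes tested that were highest in this library was not counted, so 7 of 13 has no background to be judged by. Slc6a6 was higher in every shPostn library, and Slc6a20b lay between 0.244 and 0.899 CPM in all 6 libraries. The Slc7 genes among the 7 are given here, chosen after their values were seen. Slc7a8 (LAT2), a light chain for neutral amino acids, measured 2.21, 1.51 and 0.558 CPM in shSCR and 0.564, 0.253 and 12.9 CPM in shPostn. Slc7a7 (y+LAT1), a light chain known from macrophages, measured 6.10, 5.33 and 6.70 CPM in shSCR and 5.39, 6.72 and 11.5 CPM in shPostn. The cationic transporter gene Slc7a2 (CAT2), which supplies arginine to activated macrophages, measured 34.1, 35.9 and 13.9 CPM in shSCR and 23.1, 47.9 and 93.0 CPM in shPostn. None of these 3 passed the edgeR test (adjusted p = 0.531, 0.439 and 0.382), and all 3 had overlapping groups. Beside them, the 16 leukocyte markers summed to 215, 155 and 76.3 CPM in shSCR and 121, 53.9 and 990 CPM in shPostn; their part in these values was not tested. The other markers of non-tumour cells stayed low: endothelial genes summed to at most 6.34 CPM, skeletal muscle genes to at most 1.17 CPM, adipocyte genes to at most 0.928 CPM and erythroid genes to at most 27.6 CPM in any library, the last again in shPostn replicate 3.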
